A study of Homo sapiens with 6 samples.

Results

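A set of 10 genes of protein folding and degradation in the endoplasmic reticulum (ER) were followed in EoL-1 cells with and without an edit of ATF3. They were taken by symbol: the folding genes CALR, CANX, PDIA4, PDIA6 and MANF, the degradation genes SEL1L, HERPUD1 and EDEM1, and the stress signalling genes ERN1 and XBP1. All 10 members were found among 35052 genes with a transcript in the deposited tables, and all 10 passed the low-count filter. EoL-1 is a human cell line from an eosinophilic leukaemia. The RNA-seq libraries were made from polyadenylated RNA, 3 of them from unedited cells (wild type) and 3 from cells in which ATF3 was edited with CRISPR/Cas9. These are called knockout after the sample labels, although the design text of the series says knockdown. No other treatment is named for either group, and the labels do not say whether the knockout libraries come from 1 clone or several, or from separate cultures, so the spread behind the p-values may be technical.

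The ER is where secreted and membrane proteins are made and folded. Lectin chaperones and disulfide isomerases help them fold, and proteins that fail are trimmed, pulled back to the cytosol and destroyed by the proteasome, which is called ER-associated degradation. When unfolded proteins build up, the sensor kinase and nuclease ERN1 (IRE1) cuts the mRNA of XBP1, and the ligated product encodes a transcription factor that acts together with ATF6 on genes of both arms. Granulocytes of the eosinophil lineage rely on XBP1 during their development.

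The promoters of several members hold the ER stress response element (ERSE), the sequence through which ATF6 and XBP1 act on chaperone genes. It was searched as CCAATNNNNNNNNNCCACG on both strands, in the window from 250 bases before to 50 bases after the start site of each gene, as RefSeq gives it on GRCh38.p14. All 10 members had a window. That of PDIA6 (chr2:10832436-10832735) does not hold the start of ENST00000272227.7, which had 99.9% of the reads of PDIA6 and starts at base 10812844, so its lack of matches does not describe the start in use. For CANX, a transcript with 38.7% of the reads, ENST00000504734.5, starts at base 179698417, before its window. The main transcript of MANF, ENST00000528157.6 with 81.7% of the reads, starts at base 51385047. That is near the upstream end of the window of MANF (chr3:51385041-51385340), so the bases before this start were hardly searched. The main transcript of PDIA4, ENST00000286091.9 with 96.2% of the reads, starts at base 149028641 on the minus strand. It lies well inside the window of PDIA4 (chr7:149028441-149028740), so fewer than 250 bases before this start were searched. The element was in the windows of CALR, CANX and XBP1, 3 of 10, and in 0.0806% of 27305 windows of that length. HERPUD1 held the related ERSE-II, searched as ATTGGNCCACG, found in 0.0549% of the windows. The stretches follow with the element in capitals, on the strand of the gene, and HSPA5, the ER chaperone known as BiP, is shown for comparison.
CALR (chr19:12938364-12938422, plus strand): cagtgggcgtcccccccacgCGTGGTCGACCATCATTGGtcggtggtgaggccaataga
CANX (chr5:179698758-179698816, plus strand): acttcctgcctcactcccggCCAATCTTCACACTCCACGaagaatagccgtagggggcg
XBP1 (chr22:28800583-28800641, minus strand): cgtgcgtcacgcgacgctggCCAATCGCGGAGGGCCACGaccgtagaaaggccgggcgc
HERPUD1 (chr16:56932005-56932055, plus strand): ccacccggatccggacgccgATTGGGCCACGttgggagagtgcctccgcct
HSPA5 (chr9:125241371-125241429, minus strand): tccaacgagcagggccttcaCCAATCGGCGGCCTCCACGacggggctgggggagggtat
In CALR the element lies on the opposite strand, from base -225 to base -207 counted from the start site, and in CANX it lies from -151 to -133. The element was thus shared by CALR, CANX, XBP1 and HSPA5. Its end motifs were commoner among the members: CCAAT alone was in 9 of 10 windows and in 35.7% of all windows, and CCACG alone in 8 of 10 and in 37.9%. The site TGACGTCA, which ATF3 and related factors bind, was in none of the 10 windows and in 1.98% of all windows. TGANTCA, a pattern that takes in the AP-1 site but is wider than it, was in none and in 7.76%. The unfolded protein response element TGACGTGG was in none either, and in 0.795% of all windows. The composite site TGATGNAA was in the window of 1 member, HERPUD1, and in 3.67% of all windows. These searches cover both strands and count the windows of PDIA6, MANF and PDIA4. A window without a match says only that those letters are not in it.

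The libraries held between 26766103 and 30117281 estimated reads. Wild-type replicate 2 stood apart from the other wild-type libraries: on the first principal component of all genes, which held 42.1% of the variance, it lay at -13.5, they lay at -37.9 and -34.9, and the knockout libraries lay between 21.0 and 35.5. Without it CALR, SEL1L, ERN1 and XBP1 kept their calls, EDEM1 lost its call and CANX gained one. The targeted gene ATF3 stood at 22.9, 16.2 and 23.0 CPM (read counts scaled to a common library size) in wild type and at 5.62, 8.33 and 4.52 CPM in knockout. ATF3 fell by 1.75 (log2, SE 0.25, adjusted p from edgeR 0.0098), so part of its mRNA remained. Of the granule and surface genes that mark eosinophils, RNASE2 and RNASE3 were tested, PRG3, CLC and IL5RA were at 0 in every library, and EPX, PRG2, SIGLEC8 and CCR3 were too low to test. The summed level of the 9 marker genes was 36.5 to 51.9 CPM in wild type and 116 to 182 CPM in knockout. The 7 neutrophil markers summed to between 49.97 and 145 CPM in wild type and between 250.5 and 566 CPM in knockout, and the monocyte markers to between 94.1 and 337 CPM and between 507 and 849.6 CPM. ELANE, AZU1 and PRTN3 of the former and FCGR3A of the latter were at 0 in every library. The neutrophil sums lay mostly in MPO, S100A8 and S100A9, and the monocyte sums almost wholly in LYZ and CSF1R. CD14 lay between 0.035 and 0.364 CPM over all libraries. The 6 markers of plasma cells, secretory cells rich in ER, summed to 1.02 to 1.46 CPM in wild type and 1.68 to 4.66 CPM in knockout, with TNFRSF17 at 0, and the 5 lymphocyte markers to 4.85 to 7.48 and 6.04 to 7.13 CPM, with CD3E, CD3D and MS4A1 at 0. Whether the shift in myeloid markers has a part in the results below was not tested, and in bulk RNA a change in the mix of cells and a change per cell cannot be told apart.

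Of the 10 members, 1 rose and 4 fell in the knockout libraries. The lectin chaperone gene CALR rose, while the degradation genes SEL1L and EDEM1 and the signalling genes ERN1 and XBP1 fell. Over all 13131 genes tested with edgeR's quasi-likelihood test at an adjusted p of 0.05, 11.4% were higher and 9.72% lower. In 8 of the 10 members the 2 groups did not overlap, which was so for 43.5% of all tested genes. The median log2 fold change of the members was -0.30, with a range from -0.78 to 0.66, against a median of 0.01 over all tested genes. The calls rest on few libraries. Without wild-type replicate 1 the smallest adjusted p in the whole table was 0.0503, so that every call named here was lost, and 3496 genes then had an unadjusted p under 0.05. Without wild-type replicate 3 SEL1L was the only member still called, and only just (edgeR adjusted p = 0.04999).

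**Figure D1:**
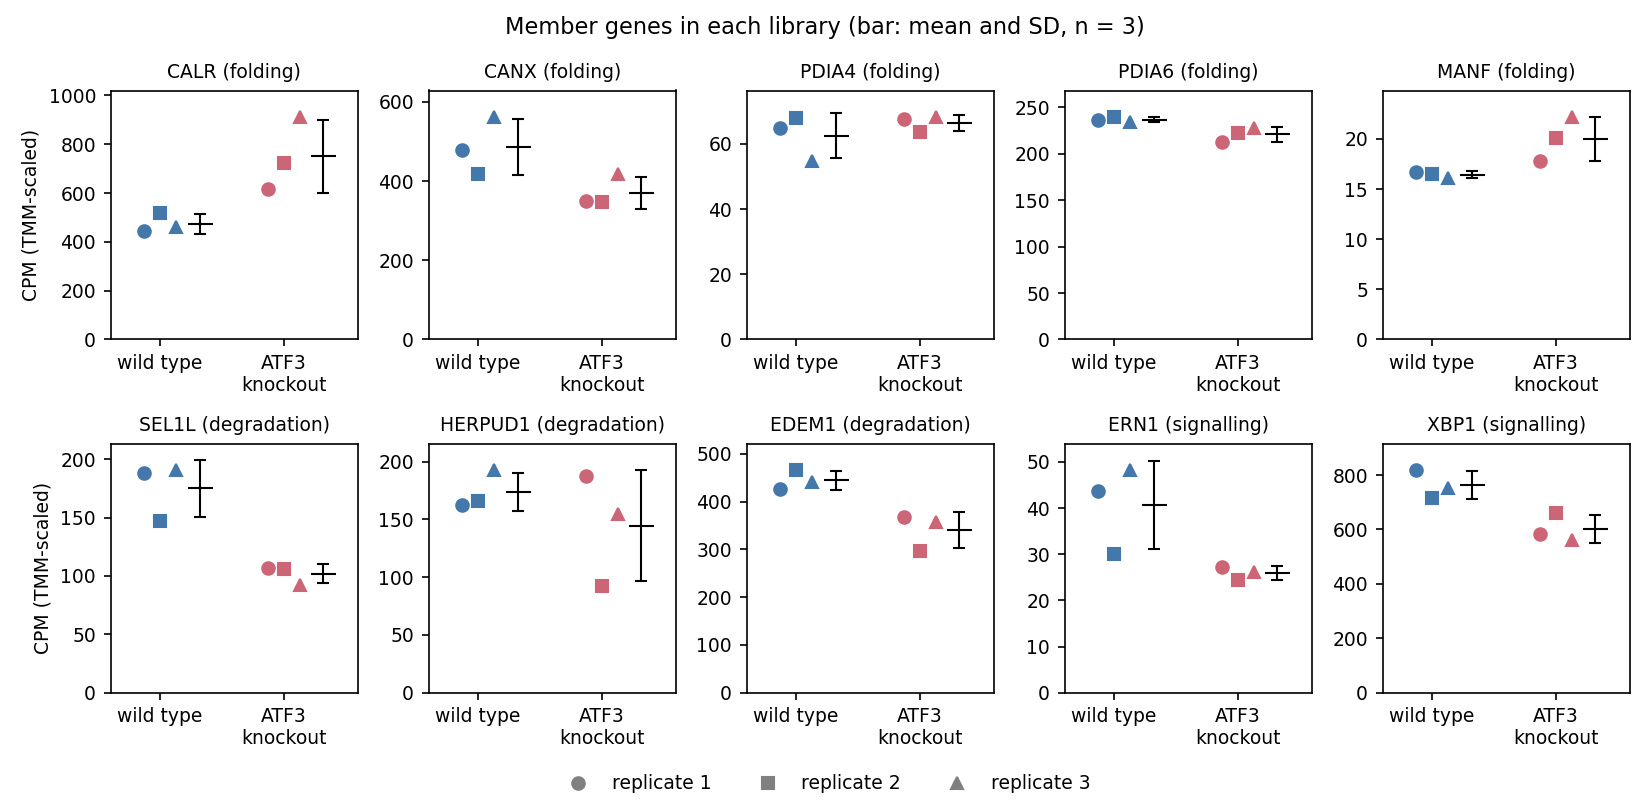
Level of each member in CPM (vertical axes, scaled between libraries by the TMM method) in the 3 wild-type and 3 knockout libraries, with symbols for the replicate numbers and a bar for the mean and SD. CALR lies between 442 and 519.6 CPM in wild type and between 616 and 911 CPM in knockout, and the groups overlap in PDIA4 and HERPUD1 alone.

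CALR encodes calreticulin, the soluble lectin chaperone that binds calcium and holds newly made glycoproteins in the folding cycle. The gene (ENSG00000179218.13, chr19:12938578-12944489, plus strand, GRCh38) stood at 442, 519.6 and 460.2 CPM in wild type, in the order of replicates 1, 2 and 3 as throughout, against 616, 724 and 911 CPM in knockout. Each knockout library was above each wild-type library, and the knockout libraries differed from each other by more than the wild-type libraries did. The means were 474 ± 40.4 CPM (SD, n = 3) and 750.5 ± 149 CPM (SD, n = 3). CALR rose by 0.66 (log2, 95% interval 0.32 to 1.00, SE 0.14, edgeR adjusted p = 0.0227), a level 1.58-fold higher. Permuting the 6 libraries between the groups (exact, two-sided) gave p = 0.1, the smallest that this design allows, as it did for each of the 8 members whose groups did not overlap. The call was lost without wild-type replicate 1 (adjusted p = 0.0995), wild-type replicate 3 (0.0885) or knockout replicate 2 (0.0516), with log2 fold changes from 0.49 to 0.79 over the 6 fits that leave out a library.

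CANX encodes calnexin, the membrane-bound partner of calreticulin with the same lectin domain, and its values lay on the other side. CANX (ENSG00000127022.14, chr5:179678628-179730925, plus strand) stood at 479, 419 and 562 CPM in wild type and at 349, 346 and 417 CPM in knockout. Wild-type replicate 2 and knockout replicate 3 were nearly level, so the groups only just failed to overlap. The log2 fold change was -0.39 (SE 0.12, 95% interval -0.69 to -0.10), and it did not pass the edgeR threshold (adjusted p = 0.0658). It did pass with DESeq2 (adjusted p = 0.0136), with the replicate number as a block (0.0227), and without wild-type replicate 2 (0.039) or knockout replicate 3 (0.0407). Per length, CALR stood at 0.865, 1.27 and 0.805 times the TPM of CANX in wild type, against 2.60, 1.96 and 2.24 times in knockout. TPM is the deposited abundance that corrects for transcript length. By this measure the pair was near parity in wild type, and CALR was the more abundant in each knockout library. The TPM of CANX rests in part on short transcripts such as ENST00000503303.1, of 345 bases. Its count was 0 in knockout replicate 1, which had the highest ratio, and between 193 and 317 elsewhere. CANX stood at 138 TPM in knockout replicate 1 and 216 TPM in knockout replicate 2, although their CPM were nearly level. The parity and the size of the ratios are therefore uncertain.

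PDIA4, PDIA6 and MANF did not pass the test. PDIA4, which makes and rearranges disulfide bonds (ENSG00000155660.10, chr7:149003062-149028641, minus strand), stood at 64.8, 67.8 and 54.6 CPM in wild type and at 67.6, 63.7 and 68.2 CPM in knockout. The groups overlapped, and the log2 fold change was 0.09 with a 95% interval from -0.13 to 0.31 (edgeR adjusted p = 0.52). PDIA6, an isomerase that also binds the luminal side of stress sensors (ENSG00000143870.12, chr2:10783391-10837977, minus strand), had 237, 239 and 234 CPM in wild type, against 213, 222 and 228 CPM in knockout. The knockout libraries were each a little lower, and the log2 fold change of -0.10 (95% interval -0.23 to 0.03) did not pass (adjusted p = 0.229). MANF, a small ER protein that stabilises clients of BiP and can be secreted (ENSG00000145050.16, chr3:51385047-51389397, plus strand), had 16.7, 16.5 and 16.1 CPM in wild type and 17.8, 20.1 and 22.2 CPM in knockout. Each knockout library was above each wild-type library, with a log2 fold change of 0.28 (95% interval 0.04 to 0.52) that did not pass (adjusted p = 0.0877). The intervals of PDIA4 and PDIA6 leave room for changes of up to 0.31 in size on the log2 scale.

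SEL1L had the largest fall of the 10 members. It encodes the adaptor that links the ubiquitin ligase SYVN1 (HRD1) to its clients at the ER membrane. SEL1L (ENSG00000071537.13, chr14:81471549-81533861, minus strand) stood at 188, 147 and 190.4 CPM in wild type and at 107, 106 and 92.7 CPM in knockout. Even wild-type replicate 2, the lowest of its group, was above every knockout library. The means were 175 ± 24.3 CPM and 102 ± 8.03 CPM (SD, n = 3 each), a fall of 0.78 (log2, 95% interval -1.06 to -0.51, SE 0.12, edgeR adjusted p = 0.0101). That is a level 1.72-fold lower. Of the fits without a library, the one without wild-type replicate 1 alone ended the call (log2 fold change -0.73, adjusted p = 0.0555). The call only just held without wild-type replicate 3 (-0.72, adjusted p = 0.04999).

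EDEM1 encodes a mannosidase-like protein that picks out misfolded glycoproteins for degradation. EDEM1 (ENSG00000134109.10, chr3:5187646-5219957, plus strand) had 426, 465 and 441.5 CPM in wild type and 367, 296 and 358 CPM in knockout. All knockout libraries were lower than all wild-type libraries, knockout replicate 2 the most. EDEM1 fell by 0.38 (SE 0.09, 95% interval -0.60 to -0.17, edgeR adjusted p = 0.0294), and the call was lost without any of the 3 wild-type libraries (adjusted p = 0.0901, 0.0700 and 0.0954 without replicates 1, 2 and 3) and with the replicate number as a block (0.0528).

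HERPUD1 encodes a membrane protein of the same ligase complex that is strongly induced by ER stress, and it had the largest SE of the 10 members, 0.24. HERPUD1 (ENSG00000051108.14, chr16:56932048-56944863, plus strand) had 163, 166 and 192 CPM in wild type and 187, 92.2 and 154 CPM in knockout. Knockout replicate 1 lay within the wild-type range and knockout replicate 2 far below it. The log2 fold change was -0.27 with a 95% interval from -0.83 to 0.30 (edgeR adjusted p = 0.457), and it was -0.03 without knockout replicate 2 and -0.50 without knockout replicate 1. A transcript of HERPUD1 annotated for nonsense-mediated decay (ENST00000565966.5, chosen after its values were seen) held 13.7, 10.1 and 11.4% of all reads of the gene in wild type, against 8.74, 6.68 and 8.30% in knockout. The division of reads between transcripts is an estimate.

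**Figure D2:**
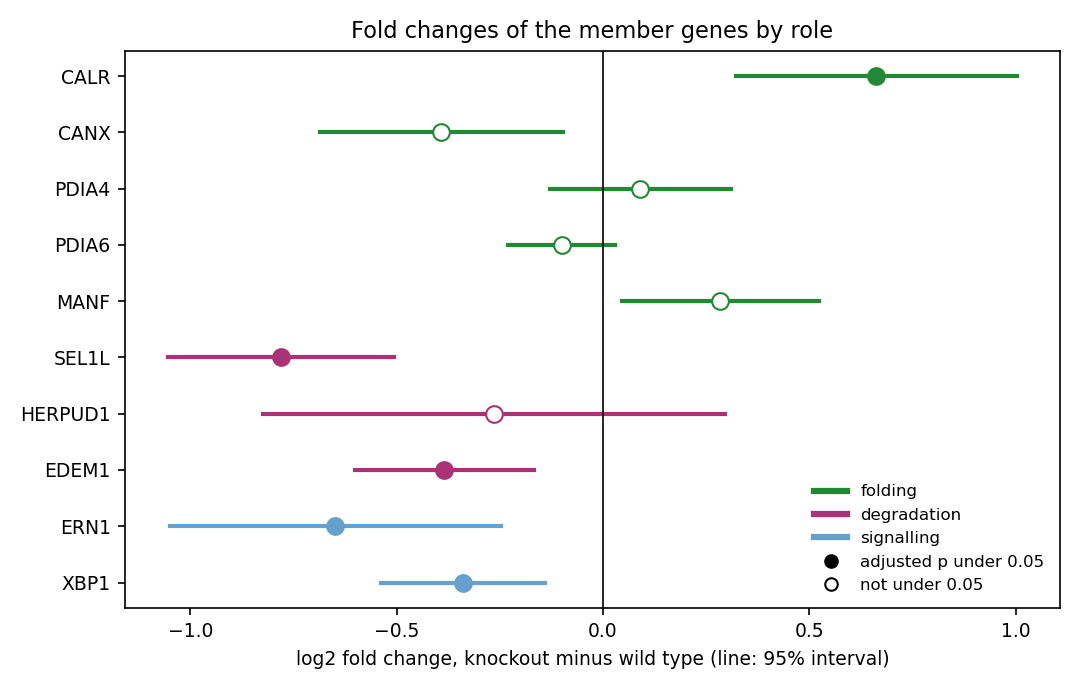
Log2 fold change of each member, knockout minus wild type (horizontal axis), with its 95% interval as a line and the role as colour. Filled points passed an edgeR adjusted p of 0.05: CALR at 0.66 above 0, and SEL1L, EDEM1, ERN1 and XBP1 between -0.78 and -0.34.

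Both signalling genes fell. ERN1 encodes the sensor with the kinase and nuclease domains (ENSG00000178607.15, chr17:64039142-64130819, minus strand), and it was the least abundant member, at 6.67 ± 0.20 TPM in wild type and 4.23 ± 0.34 TPM in knockout (SD, n = 3 each). It had 43.8, 30.0 and 48.1 CPM in wild type and 27.3, 24.4 and 26.0 CPM in knockout. Wild-type replicate 2 was close to the knockout libraries on the CPM scale. On the TPM scale that library was level with the others, at 6.77 beside 6.44 and 6.81, and the knockout libraries were at 4.25, 4.56 and 3.88. That level TPM rests in part on ENST00000577567.5, a transcript of 398 bases. It was assigned 11.2 reads in wild-type replicate 2 and 0 in replicates 1 and 3. The main transcript, ENST00000433197.4, held 782 reads in that library, beside 1139 and 1239, so the TPM does not show that the library was level. ERN1 fell by 0.65 (SE 0.17, 95% interval -1.05 to -0.25, edgeR adjusted p = 0.038). The call was lost with limma-voom (adjusted p = 0.0529) and in each fit without a library except that without wild-type replicate 2 (0.0101), with adjusted p-values from 0.0668 to 0.136.

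XBP1, the target of that nuclease (ENSG00000100219.16, chr22:28794555-28800597, minus strand), was the most abundant member in wild type. It stood at 817, 715 and 754 CPM in wild type and at 584, 661 and 560.4 CPM in knockout. The groups did not overlap, and wild-type replicate 2 and knockout replicate 2 lay nearest to each other. XBP1 fell by 0.34 (SE 0.08, 95% interval -0.54 to -0.14, edgeR adjusted p = 0.0325), a level 1.27-fold lower. The call was lost without wild-type replicate 1 (adjusted p = 0.13), wild-type replicate 3 (0.102), knockout replicate 1 (0.0946) or knockout replicate 3 (0.0564), with the effective length of the transcripts as an offset (0.052), with same-version transcripts alone (0.0536) and with the replicate number as a block (0.055).

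The splice made by ERN1 can be read from the annotation, since a pair of XBP1 transcripts lacks 26 bases in the middle of an exon of the other coding transcripts. The sequence is shown because these bases decide the reading frame of the product. The unspliced form is given with the gap annotated for ENST00000344347.5 in capitals, and below it the joined form. Both are on the minus strand of GRCh38 as in the GENCODE 29 transcripts. The capitals mark this annotated placement and not the cut sites of ERN1. The gap is chr22:28796122-28796147.
XBP1 unspliced: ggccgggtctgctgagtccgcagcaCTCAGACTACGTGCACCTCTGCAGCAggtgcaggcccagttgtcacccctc
XBP1 spliced: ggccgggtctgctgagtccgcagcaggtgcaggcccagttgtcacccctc
The gap of the spliced transcript ENST00000611155.4 is annotated at chr22:28796124-28796149, and because of repeated letters at its edges 7 placements of the gap give the same joined sequence.

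Most XBP1 reads were assigned to the unspliced form in all libraries. The spliced transcript ENST00000344347.5 was assigned 789, 823 and 301 reads in wild type, in the order of the replicates, against 0, 365 and 223 in knockout. The other spliced transcript held 0 in every library. The main unspliced transcript, ENST00000216037.10, held between 14072 and 20255 reads. As a share of the reads of coding XBP1 transcripts, the spliced form made up 3.66, 4.25 and 1.52% in wild type and 0, 2.10 and 1.45% in knockout. A count of 0 in knockout replicate 1 allows a share of up to 0.0208% by counting error alone, which does not cover errors of assignment. The means were 3.14 ± 1.44% and 1.18 ± 1.08% (SD, n = 3 each), wild-type replicate 3 lay within the knockout range, and the exact two-sided permutation test gave p = 0.2. ENST00000344347.5 ends well short of the main transcript in the last exon, so its reads are also separated by where they fall along the gene, and the share is not a count of reads across the junction.

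**Figure D3:**
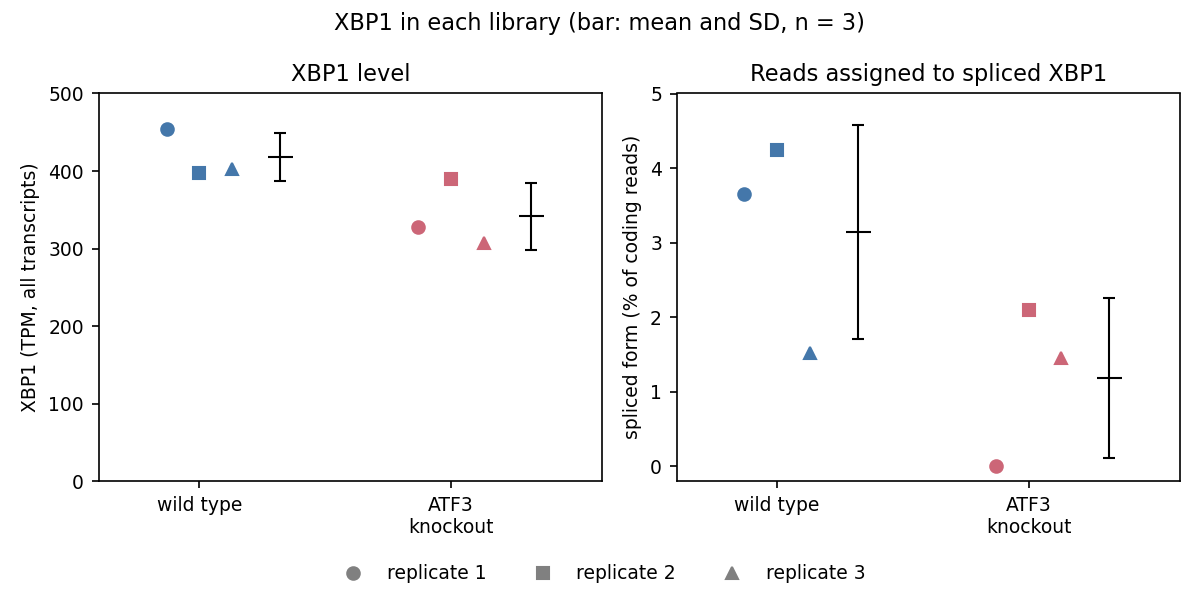
XBP1 in each library, as the TPM of all its transcripts (left) and as the percent of coding reads assigned to the spliced form (right), with the mean and SD as a bar. The level is 398 to 454 TPM in wild type and 307 to 389 TPM in knockout, and the spliced shares overlap between the groups.

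Folding against degradation was compared within each library, as the mean log2 CPM of the 5 folding members minus that of the 3 degradation members. The difference was -0.74, -0.66 and -0.85 in wild type, against -0.47, 0.06 and -0.04 in knockout. The knockout libraries were each shifted towards folding, by 0.60 on average, and since the members were chosen with earlier results of these data known, no test is given. The shift lay mostly on the side of degradation. The mean of the degradation members went from 7.89 ± 0.09 to 7.40 ± 0.23 (SD, n = 3 each) without overlap, and that of the folding members from 7.14 ± 0.01 to 7.25 ± 0.13 with overlap. With CALR left out the shift was 0.47. It belongs to these members, and the wider lists described below did not go that way. With members left out, their median log2 fold changes were -0.19 for chaperones, -0.09 for isomerases and -0.02 for the lectin cycle. The median was 0.06 for ER-associated degradation. Of the 5 folding members 1 rose and 0 fell, and of the 3 degradation members 2 fell and 0 rose. These counts of few genes are to be read beside the 11.4% higher and 9.72% lower of all tested genes.

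**Figure D4:**
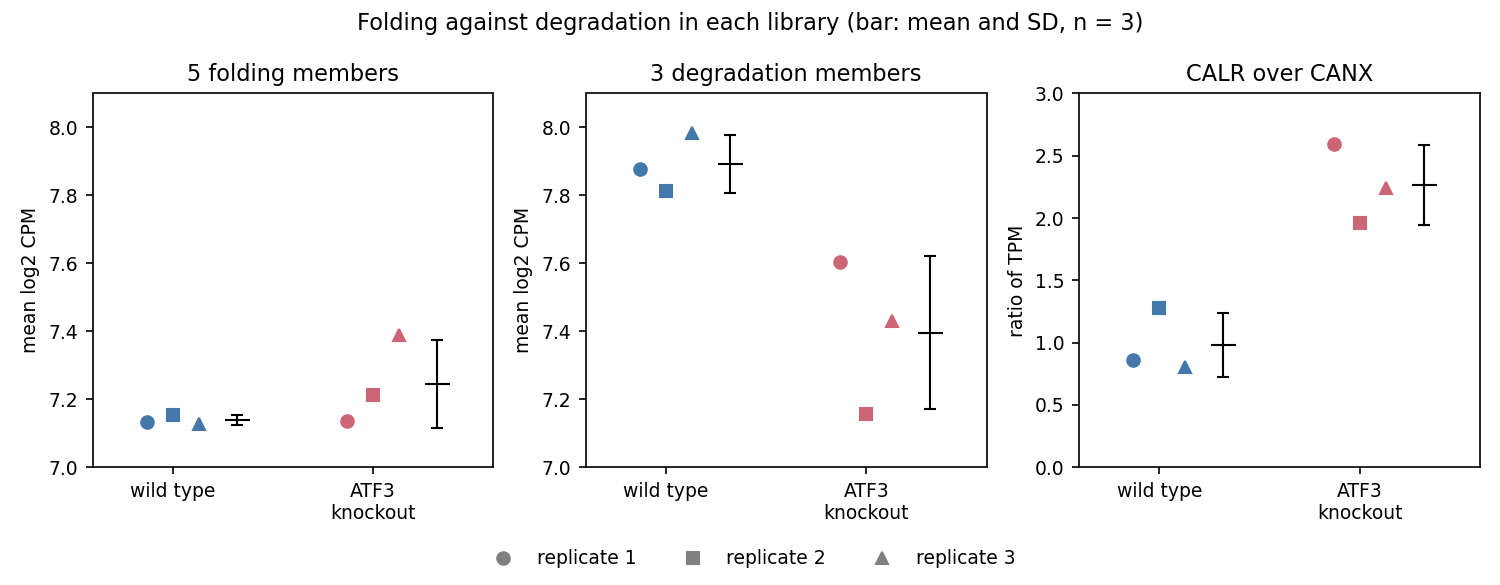
Mean log2 CPM of the 5 folding members (left) and the 3 degradation members (middle) and the ratio of CALR to CANX in TPM (right) in each library, with the mean and SD as a bar. The 2 left axes start at 7, the degradation members lie at 7.81 to 7.98 in wild type and 7.16 to 7.60 in knockout, and the ratio lies at 0.805 to 1.27 and 1.96 to 2.60.

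Summed over genes per length, the 5 folding members held 660.2, 647 and 693 TPM in wild type and 632, 785 and 866 TPM in knockout. The groups overlapped through knockout replicate 1. The share of CALR in these sums was 36.7, 43.9 and 36.0% in wild type and 56.6, 54.0 and 57.5% in knockout, without overlap. The sums, the shares and the place of CANX in the order below carry the uncertainty of the TPM of CANX described above. By TPM the order in wild type was XBP1 (418 ± 31.2), CANX (271 ± 44.2), CALR (259 ± 22.6), HERPUD1 (173 ± 22.2), PDIA6 (96.1 ± 1.69), EDEM1 (89.97 ± 3.29), SEL1L (27.3 ± 2.25), PDIA4 (24.5 ± 0.95), MANF (16.7 ± 0.65) and ERN1. CANX and CALR overlapped between libraries, as did SEL1L and PDIA4, and the other neighbours did not. In knockout CALR came first (426 ± 70.1), overlapping XBP1 (341 ± 42.7), and SEL1L (14.6 ± 3.34) fell below PDIA4 and MANF in the order. SEL1L stood at 16.2, 16.9 and 10.8 TPM in knockout. Its short transcript ENST00000557372.1, of 594 bases, was assigned 34.8, 37.6 and 0 reads there, and 79.4, 90.0 and 76.2 in wild type. The TPM of SEL1L thus rests in part on this assignment.

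The rest of the pathway was read from 7 lists, of which 98 genes that are not members were tested. Of these 8 rose and 14 fell, with a median log2 fold change of -0.05, to be read beside the 11.4% higher and 9.72% lower of all tested genes. The same shares are to be read beside the counts of each list below. These counts depend strongly on the processing. Without wild-type replicate 1 or 3 no gene of the lists passed in edgeR, and with the effective length offset 0 rose and 9 fell. DESeq2 called 23 of them lower.

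Of 14 tested chaperones and co-chaperones of the ER, HSPA5 alone fell and none rose (median log2 fold change -0.19). HSPA5, the central Hsp70 chaperone of the ER, which holds the stress sensors inactive, had 669, 581 and 665 CPM in wild type and 509.6, 466 and 525 CPM in knockout. Each knockout library was below each wild-type library, and HSPA5 fell by 0.35 (SE 0.08, edgeR adjusted p = 0.0251). The call was lost without wild-type replicate 1 or 3 and without knockout replicate 1 or 2, with adjusted p-values from 0.0567 to 0.11. Of the genes shown above with the ERSE, HSPA5 and XBP1 thus fell, CALR rose and CANX did not pass.

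Of 7 tested genes of the lectin cycle and glucose trimming beside CALR and CANX, 2 rose and none fell (median -0.02). These were MLEC, which encodes malectin, a lectin that binds an early glycan (0.29, SE 0.06, adjusted p = 0.0208), and MOGS, the glucosidase that removes the first glucose (0.33, SE 0.09, adjusted p = 0.0416). Of 18 further disulfide and proline isomerases none rose and 3 fell (median -0.09). The membrane-bound thioredoxin-like proteins TMX4 (-0.83, SE 0.15, adjusted p = 0.0136) and TMX1 (-0.28, SE 0.07, adjusted p = 0.0377) were among these, and TXNDC12 (-0.28, SE 0.08, adjusted p = 0.0402) was the third. TXNDC12 shares 1389 exon bases with an overlapping gene on the same strand, so its reads are uncertain. With the effective length offset MLEC (0.23, adjusted p = 0.119), MOGS (0.45, 0.0589), TMX1 (-0.25, 0.103) and TXNDC12 (-0.10, 0.506) lost their calls, the value of MOGS being larger there and that of TXNDC12 much smaller. TMX1 and TXNDC12 also lost them with no filter (edgeR adjusted p = 0.0511 and 0.0559) and with the replicate block (0.0743 and 0.0594). Of the fits without a library, they kept their calls only in that without wild-type replicate 2. MOGS kept its call only in that without knockout replicate 3, and lost it with upper-quartile scaling factors (0.0638). MLEC lost its call in each fit without a wild-type library.

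Of 25 tested genes of ER-associated degradation beside the members, 3 rose and 2 fell, with a median of 0.06. These counts are near the 11.4% higher and 9.72% lower of all tested genes, so they set the list apart in neither direction. SYVN1, the ubiquitin ligase that SEL1L serves, averaged 37.7 ± 1.57 CPM in wild type, against 47.8 ± 0.87 CPM in knockout (SD, n = 3 each). It rose by 0.34 (SE 0.06, edgeR adjusted p = 0.0155), while SEL1L fell. SYVN1 overlaps FAU over 398 exon bases of the same strand. FAU held 52564 reads over all libraries against 7107 of SYVN1, and with the effective length offset its log2 fold change was 0.19 (adjusted p = 0.159). EDEM2, a paralog of EDEM1 that trims mannose, rose by 0.32 (SE 0.08, adjusted p = 0.0325). This call was lost with no filter (adjusted p = 0.0602), the effective length offset (0.0761), the replicate block (0.0665) and in each fit without a library except that without knockout replicate 2 (0.0563 to 0.125). RNF139, another ubiquitin ligase of the ER membrane, fell by 0.36 (SE 0.06, adjusted p = 0.0145). The other called genes of the list, named with their values known, were VCP, the ATPase that extracts clients from the membrane, which rose by 0.27 (adjusted p = 0.0338), and FAF2, which recruits VCP there and fell by 0.21 (adjusted p = 0.0488).

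Sensors and transcription factors of the stress response mostly fell where they passed. Of 13 tested beside ERN1 and XBP1, 5 fell and 1 rose (median -0.11). DDIT3 (CHOP), the factor of prolonged stress, fell by 1.51 (SE 0.26, edgeR adjusted p = 0.0133), ATF4, its activator, fell by 0.54 (SE 0.10, adjusted p = 0.0144), and PPP1R15A (GADD34), which restores translation after stress, fell by 0.86 (SE 0.18, adjusted p = 0.0205). DDIT3 shares 355 exon bases with MARS1 on the opposite strand, which held 70939 reads against its 2953. Also called, and named with their values known, were the sensor ATF6, which fell by 0.33 (adjusted p = 0.0369), MBTPS2, the protease that releases it, which fell by 0.57 (adjusted p = 0.0209), and CREB3, which rose by 0.35 (adjusted p = 0.0346). MBTPS2 overlaps YY2 over 1093 exon bases, and CREB3 shares bases with TLN1 and GBA2 on the opposite strand.

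Of 13 translocation and signal peptidase genes 1 fell and none rose (median -0.03), and that gene was SPCS3, a subunit of the signal peptidase (-0.31, SE 0.07, adjusted p = 0.0261). Of 9 tested subunits of the oligosaccharyltransferase, the enzyme that attaches glycans, 2 rose and 2 fell (median 0.10). The catalytic subunits went in opposite directions: STT3A, which works with the translocon, rose by 0.37 (SE 0.09, adjusted p = 0.0347) and STT3B, which acts after translation, fell by 0.29 (SE 0.06, adjusted p = 0.0189). OST4, a small subunit, rose by 0.41 (SE 0.10, adjusted p = 0.0325). With the effective length offset all 3 lost their calls, but the values moved differently: STT3A had 0.49 (adjusted p = 0.0574), OST4 had 0.42 (0.052) and STT3B had -0.21 (0.148). STT3A also lost its call in each fit without a library (edgeR adjusted p 0.055 to 0.0996) except that without wild-type replicate 2. Beside the losses without wild-type replicate 1 or 3, OST4 lost its call without knockout replicate 2 (0.086) or 3 (0.064). SPCS3 lost its call without knockout replicate 1 (0.0539) or 2 (0.064).

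**Figure D5:**
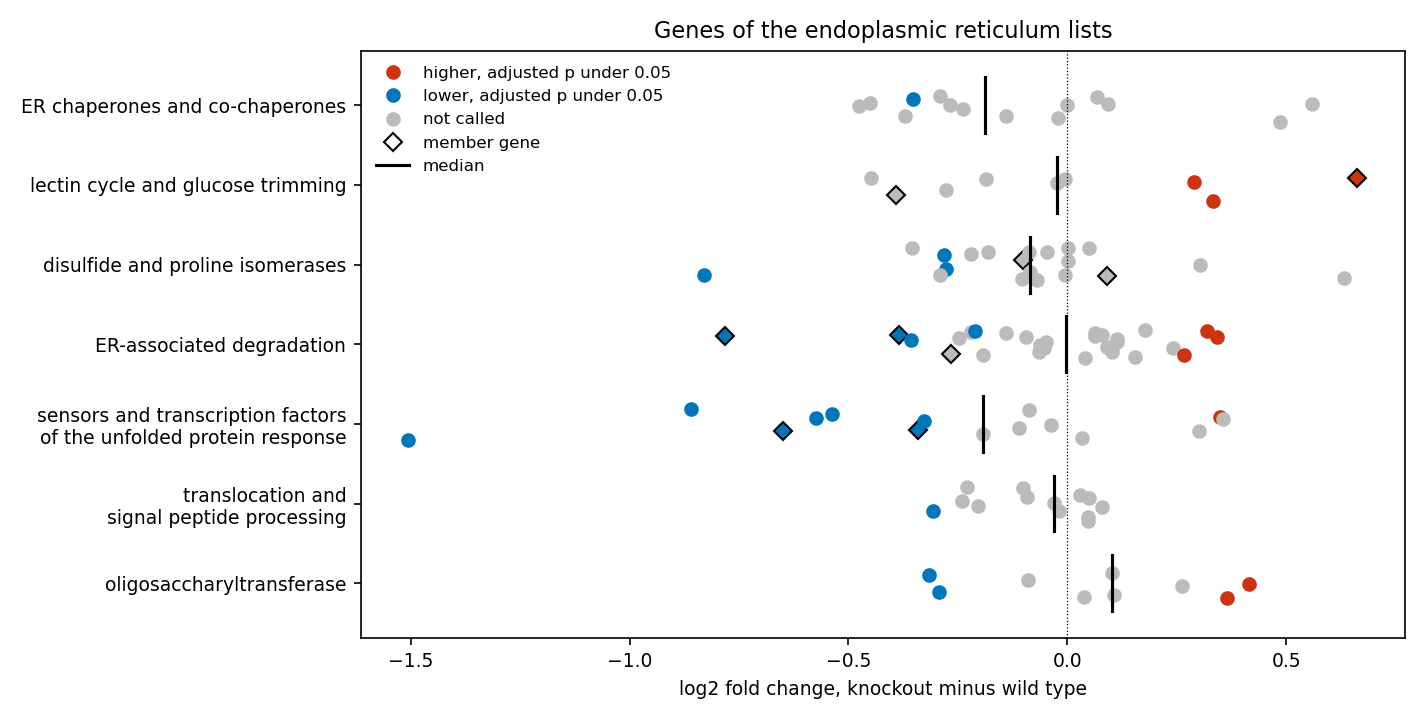
Log2 fold change, knockout minus wild type (horizontal axis), of each tested gene of the 7 lists (rows), with members as diamonds, genes past an edgeR adjusted p of 0.05 in colour and the list median, members included, as a line. The medians lie between -0.19 and 0.10, and DDIT3 at -1.51 is the lowest point.

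For most members a single transcript held nearly all reads. This transcript made up 96.5% of the reads of CALR, 99.9% of PDIA6, 98.4% of SEL1L, 96.9% of EDEM1, 96.2% of PDIA4 and 92.0% of ERN1 on average over libraries. CANX was divided between ENST00000452673.6 (47.4%) and ENST00000504734.5 (38.7%), which went the same way, with log2 fold changes of -0.32 and -0.46. HERPUD1 had 61.4% in ENST00000300302.9, and MANF had 81.7% in ENST00000528157.6. In an edgeR fit over 52307 transcripts, 0% were called higher and 0% lower (smallest adjusted p 0.058), and none of the 52 tested transcripts of the members passed. At an unadjusted p under 0.05 there were 11 of these 52, and 8091 of all tested transcripts. The main transcript of SEL1L had a log2 fold change of -0.76 (adjusted p = 0.0782) and that of CALR of 0.67 (adjusted p = 0.136).

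Profiles over the 6 libraries were compared by the root mean square difference of log2 CPM after each gene's mean was taken away, over 8785 other protein-coding genes of at least 10 CPM on average. Nearest to SEL1L were CEP57 (0.0616), UFM1 (0.0627) and ETV5 (0.0742), with log2 fold changes of -0.67, -0.66 and -0.80. Nearest to CALR were NUMBL (0.0865), POMT2 (0.0874) and ERLIN1 (0.0882), with log2 fold changes of 0.64, 0.61 and 0.59. These genes were picked for their likeness over the same libraries, so their fold changes follow from the choice. Among the members themselves SEL1L and ERN1 were nearest to each other (0.144), as were PDIA4 and PDIA6 (0.138) and CANX and EDEM1 (0.176). CALR had MANF as its nearest member, at 0.212.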

How the data were processed

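The libraries were made with a stranded mRNA kit, per the labels' protocols. The submitters' processing notes list Salmon 1.6.0, FastQC 0.11.9 and hg38. The authors deposited for each library a table of estimated counts and TPM per transcript, per the file headers. Salmon's library type, bias options and transcriptome were not stated in these sources, so whether strand was used is unknown. Of 177456 transcripts, 167027 matched GENCODE 29 by identifier, version ignored; the others held 3.59 to 3.82% of the reads and stayed out. Estimated counts were summed per gene and rounded. edgeR 4.0.16 (R 4.3.3; glmQLFit, glmQLFTest) compared the groups over all 6 libraries with TMM factors, filterByExpr (minimum 10 reads) and Benjamini-Hochberg adjustment over 13131 genes at 0.05, with 4 residual degrees of freedom. SE is the log2 fold change over the root of F. The deposited TPM served as levels, with a pseudocount of 0.1 on a log scale. Log2 CPM used a prior count of 2. The fit was checked on simulated data. Alternatives were DESeq2 1.42.0, limma-voom (limma 3.58.1), other scaling factors, no filter, effective length offsets (equal between libraries per transcript), a replicate block, same-version transcripts only and leaving out each library.

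The members, lists and tests were chosen with earlier results of these data known. Beside the members, ATF3 and HSPA5, the text names up to 3 called genes per list with the smallest p, the 3 nearest profiles to SEL1L and CALR, and member transcripts with 10% of a gene's reads. DERL3 of the lists was not analysed here, and a marker gene is not reported here. Overlapping genes may share reads.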

Additional observations from a re-analysis of the deposited data

How the results depend on the processing

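The fold changes of the members kept their sign in every fit, except that of PDIA4 with same-version transcripts (-0.06). That setting leaves out the main transcript of SEL1L, EDEM1, ERN1, PDIA4 and MANF and called 0 members lower. Genes called over the table numbered 723 higher and 660 lower with the effective length offset, 514 and 507 with same-version transcripts, and between 0 and 1370 higher and 0 and 1388 lower without a library. Members called ranged from 0 to 1 higher and from 0 to 4 lower without a library. Other list genes called ranged from 0 to 7 higher and from 0 to 16 lower without a library. They numbered 0 and 9 with the effective length offset, 5 higher with the replicate block, 2 and 6 with same-version transcripts, and 23 lower with DESeq2. ATF3 had -0.81 with same-version transcripts (adjusted p = 0.112) and between -2.03 and -1.58 without a library, not passing without wild-type replicate 1 (0.0527). PPP1R15A turned to 0.053 with same-version transcripts. The spliced share of XBP1 differed by -3.42 percentage points on the TPM scale against -1.96 on reads. The labels do not say whether same-numbered libraries were handled together. Deviations of same-numbered libraries correlated at -0.0924, 0.106 and 0.196 over genes, and those of other pairs at -0.239 to 0.169. So few pairs cannot settle the question. The block gave 1225 higher and 1093 lower genes. The cause of these shifts was not tested.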
